A study of Homo sapiens with 15 samples.

Results

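Knockdown of the p63 isoforms that carry the transactivation (TA) domain was compared with its vector control across the transcriptome of MCF-10A cells, an established, immortalized and non-tumorigenic human mammary epithelial line. The comparison takes 4 of the 15 arrays of the study, chosen by their labels: 2 of cells given an shRNA (short hairpin RNA) against the TA isoforms (shTA) and 2 of cells given the shRNA vector alone. Every gene with a probe set that names it alone was included, which gave 11963 genes. The study also held 2 arrays of an shRNA (shDBD) whose target is the DNA-binding domain, which every p63 isoform has. A separate overexpression arm gave 3 arrays for each of its groups, an empty vector, the isoform ΔNp63α and the isoform TAp63γ. All cells were harvested 48 hours after infection with a retrovirus or an adenovirus, and the labels do not say which virus carried which construct. The cells are 1 line in culture, and the labels name 1 shRNA for each target.

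p63, a relative of p53, is a transcription factor on which the basal cells of stratified and glandular epithelia depend. Its gene has an upstream promoter, which gives TA isoforms with an N-terminal transactivation domain, and an internal promoter, which gives ΔN isoforms without it. ΔN isoforms are the main form in basal epithelial cells, where they maintain the basal keratins, adhesion to the basement membrane and proliferation; TA isoforms are better known for their part in the germ line and in the response to stress. A hairpin against the TA domain leaves the ΔN transcripts without its target sequence, whereas one against the DNA-binding domain has its target in both.

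Levels are log2 expression values of 1 probe set per gene, and a difference is the mean of the shTA arrays minus the mean of the vector arrays with its standard error (SE) from limma, n = 2 per group. A gene is said to have risen or fallen, or is called, where the Benjamini-Hochberg adjusted p over all 11963 genes was under 0.05. The labels name biological replicates but do not say what was repeated, so the spread behind each p-value may be technical. The transcript that the hairpin targets was not analysed here and gives no check of the labels. The 4 arrays carried the markers of the line: KRT5 and KRT14, the basal keratins, stood at or above the 99th percentile of all genes, and KRT18, CDH1, CDH3, ITGB4, TRIM29 and VIM above the 95th. EPCAM lay between the 77.3 and 79.1 percentiles, ESR1 between 48.9 and 51.8, and PGR between 2.58 and 4.03. Replicate arrays correlated at 0.998 for the vector and 0.998 for shTA. The 3′ minus 5′ difference of the actin control probe sets, a measure of RNA or labelling quality, was −0.0938 and −0.0799 in the vector arrays and 0.00283 and 0.201 in the shTA arrays, so it moved with the group, and its part in the results was not tested. For the GAPDH controls it was 0.00608 and 0.00741 in the vector arrays and 0.00758 and 0.0662 in the shTA arrays. In both controls shTA replicate 2 lay highest.

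Of the 11963 genes, 274 were called (2.29%): 172 rose (1.44%) and 102 fell (0.853%). The counts of called genes in each list below are to be read against these shares. The rises were larger: 26 of them reached 2-fold against 4 of the falls. The median size was 0.62 among the rises and −0.54 among the falls, while the median of all genes was −0.01 and the 5th and 95th percentiles of all genes were −0.27 and 0.31. In all 274 genes the shTA and vector arrays did not overlap, which was also so for 50.7% of all genes. Fitted on the knockdown arrays alone, limma called 1064 genes (8.89%), 606 higher and 458 lower, and these included all 274. Leaving out 1 array leaves 1 in its group and lowers power. A lost call therefore does not show that a gene rested on that array. The count fell without any 1 of the 4 arrays. It was 90 without vector replicate 1, 95 without vector replicate 2, 131 without shTA replicate 1 and 87 without shTA replicate 2. In each of these 4 refits 66 genes kept their call, 50 that rose and 16 that fell; genes that lost it are named as such below.

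**Figure D1:**
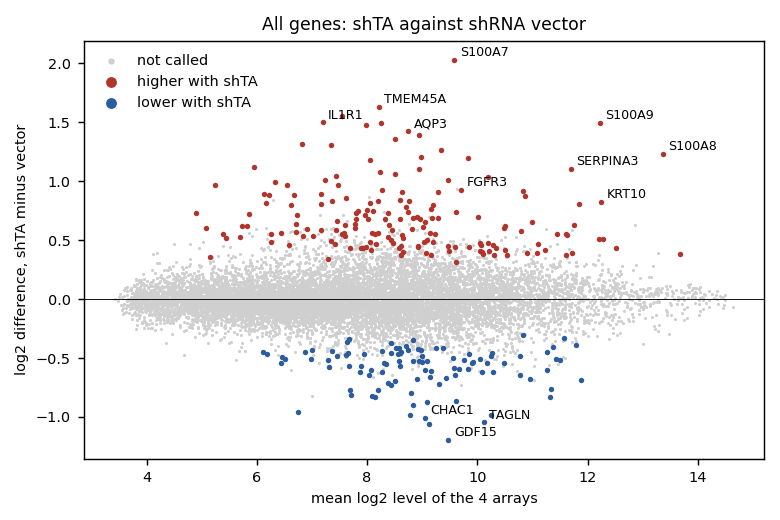
Each point is 1 gene; the horizontal axis is its mean log2 level over the 4 arrays and the vertical axis its log2 difference, shTA minus vector. Red points rose and blue points fell (limma, adjusted p under 0.05); S100A7, at 2.03, lies farthest from 0 and the largest falls end near −1.19, at GDF15.

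The largest rise of all belonged to S100A7 (psoriasin), an antimicrobial protein of stressed and differentiating squamous epithelium. Its levels were 8.51 and 8.62 in the vector arrays and 10.61 and 10.58 in the shTA arrays, a difference of 2.03 ± 0.17 (4.09-fold; adjusted p = 7.06e-06). S100A9 and S100A8, the subunits of calprotectin, rose with it. S100A9 went from 11.44 and 11.50 to 12.87 and 13.06 (1.5 ± 0.11; adjusted p = 3.06e-06). S100A8 went from 12.78 and 12.72 to 13.967 and 13.997 (1.23 ± 0.08; adjusted p = 3.06e-06). For all 3 genes both shTA arrays lay above both vector arrays by more than the replicates differed, and both shDBD arrays lay below them: 8.45 and 8.24 for S100A7, 11.15 and 11.07 for S100A9, 12.59 and 12.56 for S100A8. A second, dimmer probe set of S100A8 gave 0.53 ± 0.29, which did not pass. Of 17 measured S100 genes these 3 rose and 0 fell, with a median of 0.00. S100A2, described as a p63 target, read 14.48 and 14.52 against 14.46 and 14.43 (−0.05 ± 0.04; adjusted p = 0.702).

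The 3 genes lie in the S100 cluster of chromosome 1, and the 250 bases before their RefSeq starts (build GRCh38.p14) are shown because they are the group with the largest common rise. Capitals mark TATAAA, the TATA box motif, searched on both strands. It lies with its first base 28 bases before the start of S100A7 (chr1:153460652-153460901, minus strand) and 29 bases before the start of S100A9 (chr1:153357604-153357853, plus strand), and S100A8 (chr1:153391189-153391438, minus strand) has 0 matches.
S100A7: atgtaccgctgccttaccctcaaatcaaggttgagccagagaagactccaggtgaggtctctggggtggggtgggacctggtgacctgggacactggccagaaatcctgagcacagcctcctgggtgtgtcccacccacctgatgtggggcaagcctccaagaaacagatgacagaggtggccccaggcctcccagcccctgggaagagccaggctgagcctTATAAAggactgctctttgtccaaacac
S100A8: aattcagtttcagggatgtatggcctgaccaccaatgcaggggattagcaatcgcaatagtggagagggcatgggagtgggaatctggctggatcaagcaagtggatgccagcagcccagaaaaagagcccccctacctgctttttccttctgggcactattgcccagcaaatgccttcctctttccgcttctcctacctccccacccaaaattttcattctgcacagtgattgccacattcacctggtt
S100A9: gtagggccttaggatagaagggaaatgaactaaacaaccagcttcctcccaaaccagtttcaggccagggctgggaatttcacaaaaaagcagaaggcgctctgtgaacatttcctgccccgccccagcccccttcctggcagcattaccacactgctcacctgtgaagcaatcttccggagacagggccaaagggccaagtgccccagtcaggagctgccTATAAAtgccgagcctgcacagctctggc
Over all windows of 250 bases before to 50 after the start, TATAAA was found in 27 of 132 genes that rose and had a window in the table (20.5%), in 7 of 81 that fell (8.64%) and in 794 of all 9562 (8.3%). Apart from the S100 genes, the 27 held KRT10, AQP3, CFB, FOS, CXCR4, SGK1 and 5 histone genes. A match is a description of the letters in the window and not a shown binding site.

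Some other genes of squamous differentiation also rose. Of 35 measured genes of squamous differentiation and the cornified envelope, 9 rose and 1 fell, with a median of 0.15 against −0.01 over all genes. KRT10, the keratin of suprabasal epidermis, rose from 11.72 and 11.96 to 12.67 and 12.66 (0.83 ± 0.08; adjusted p = 3.59e-05), and its other 2 probe sets rose by 1.42 and 1.32. EHF, an epithelial ETS factor, went from 6.15 and 6.19 to 7.59 and 7.38 (1.32 ± 0.12; adjusted p = 2.02e-05). CRABP2, which carries retinoic acid to its nuclear receptor, went from 10.39 and 10.33 to 11.28 and 11.27 (0.91 ± 0.11; adjusted p = 2.28e-04). In each of the 3 genes the groups lay apart, and the calls held without any of the 4 arrays. ZNF750, a repressor of the basal programme that is itself described as a p63 target, rose by 1.0 ± 0.17 (adjusted p = 0.00394), which was lost without vector replicate 1 (0.0899) or shTA replicate 1 (0.0719). KRT4, KRT13, KRT1, CSTA and PPL rose by between 0.37 and 0.60, and each of these calls was lost without at least 2 of the 4 arrays (highest adjusted p = 0.31). Without any 1 of the 4 arrays the list held 4 called genes, not 10.

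The member that fell was IVL (involucrin), a precursor of the cornified envelope. It read 6.38 and 6.46 in the vector arrays and 5.90 and 6.01 in the shTA arrays (−0.46 ± 0.11; adjusted p = 0.0366), a call lost when any of the 4 arrays was left out (highest adjusted p = 0.226). The protease inhibitors of the same layer split. SERPINB3, a squamous cell carcinoma antigen, rose from 7.95 and 7.70 to 9.20 and 9.17 (1.36 ± 0.12; adjusted p = 1.57e-05), and its other probe set rose by 1.35. Its near-identical neighbour SERPINB4 rose by 0.97 ± 0.15 from levels near background, a call lost without vector replicate 2 (adjusted p = 0.0519), and hybridization of 1 to the probes of the other cannot be told apart. SERPINB5 (maspin) read 12.98 and 12.99 against 13.08 and 13.01 (0.06 ± 0.07; adjusted p = 0.795), and SLPI 13.81 and 13.79 against 13.88 and 13.97 (0.13 ± 0.07; adjusted p = 0.445). Of 9 clade B serpins 2 rose and 0 fell, and of 13 kallikreins KLK7 alone rose (0.46 ± 0.09; adjusted p = 0.00959; not called without vector replicate 1, at 0.155, shTA replicate 1, at 0.0719, or shTA replicate 2, at 0.0723).

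**Figure D2:**
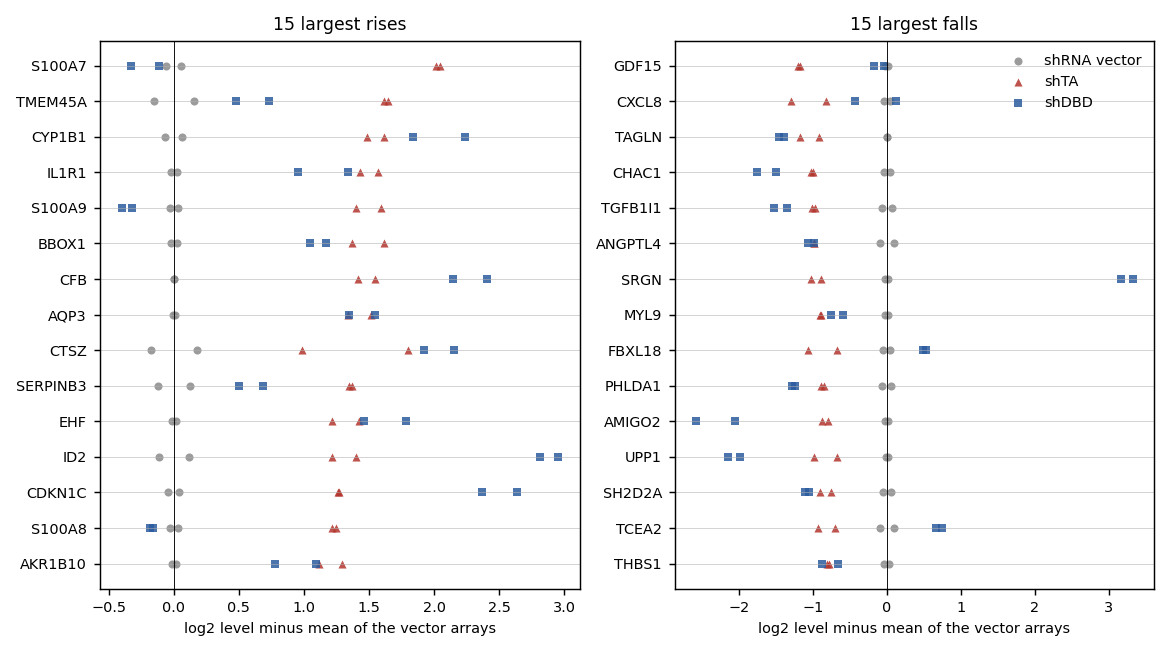
Each symbol is 1 array, placed by its log2 level minus the mean of the 2 vector arrays, for the 15 genes with the largest rise (left) and the 15 with the largest fall (right). Both red triangles (shTA) stand apart from both grey circles (vector) in every gene; blue squares (shDBD) lie on the vector's side for S100A7, S100A9, S100A8 and GDF15, and beyond shTA for CFB, ID2 and CDKN1C.

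Desmosomes are the junctions that tie keratin filaments of neighbouring cells together. Of 16 measured members 4 rose and 0 fell, 9 lay above 0, and the median was 0.16. DSC2, a desmosomal cadherin, read 8.18 and 8.35 in the vector arrays and 9.04 and 8.84 in the shTA arrays, DSC3, its basal relative, 9.81 and 9.82 against 10.36 and 10.23 (0.48 ± 0.10; adjusted p = 0.0185), and DSP (desmoplakin), the plaque protein that binds keratin, 12.26 and 12.35 against 12.83 and 12.65 (0.43 ± 0.08; adjusted p = 0.00762). These groups did not overlap. Second, dimmer probe sets of DSC2 and DSC3 gave 0.58 ± 0.19 and 0.45 ± 0.19, and neither passed. Fewer members were called without any 1 of the 4 arrays. The call of DSC2 was lost without vector replicate 1, and that of DSC3 without any of the 4 arrays. That of DSP was lost without vector replicate 1 or shTA replicate 1. Such refits leave 1 array in a group and so have less power. Of 15 genes of tight and adherens junctions limma called 0 (1 at an unadjusted p under 0.05, and 1 with the knockdown arrays alone), with a median of −0.03. Among basal and myoepithelial markers 3 of 20 rose and 1 fell. KRT16, a keratin of activated epidermis, went from 11.40 and 11.47 to 12.08 and 12.06 (0.63 ± 0.08; adjusted p = 3.27e-04), and MME (CD10), a surface peptidase of myoepithelial cells, from 7.77 and 7.79 to 8.62 and 8.60 (0.83 ± 0.09; adjusted p = 5.55e-05). KRT15 rose by 0.81 ± 0.17 (adjusted p = 0.0221; lost without any of the 4 arrays, up to 0.206). KRT5 read 14.06 and 14.08 against 14.15 and 14.04 (0.02 ± 0.12; adjusted p = 0.975) and KRT14 13.72 and 13.77 against 13.71 and 13.69 (−0.04 ± 0.11; adjusted p = 0.932). Of 23 luminal markers ERBB3 rose (0.54 ± 0.13) and KRT8 and XBP1 fell (−0.51 ± 0.12 and −0.49 ± 0.09). None of these 3 calls held without vector replicate 1 (adjusted p = 0.0899, 0.148 and 0.123, in that order), vector replicate 2 (0.295, 0.27 and 0.0613) or shTA replicate 2 (0.168, 0.476 and 0.0513), and without shTA replicate 1 that of KRT8 alone held (0.228, 0.0102 and 0.0919).

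A list of 45 genes that are described as targets of p63 held 5 rises and 1 fall, with a median of −0.00. AQP3, the aquaglyceroporin of basal keratinocytes, went from 8.03 and 8.05 to 9.37 and 9.56 (1.43 ± 0.11; adjusted p = 4.92e-06). Its other 2 probe sets gave 0.48 and 0.09, neither of which passed, so this rise rests on 1 probe set. CDKN1C (p57), an inhibitor of cyclin-dependent kinases, went from 8.66 and 8.75 to 9.97 and 9.97 (1.26 ± 0.12; adjusted p = 3.59e-05). Of its other 4 probe sets 3 gave 1.29 to 1.44, all called, and the dimmest gave −0.04. A second, dimmer probe set of FGFR3, a fibroblast growth factor receptor of the epidermis, gave 0.43 ± 0.22, which did not pass. At the probe set used FGFR3 went from 9.22 and 9.26 to 10.26 and 10.07 (0.93 ± 0.11, adjusted p = 1.99e-04). Beside it FLRT3, which binds fibroblast growth factor receptors, rose by 0.68 ± 0.12 (adjusted p = 0.00674; lost without any of the 4 arrays, up to 0.0818), and these were the 2 called of 12 genes of that system. FGFR2 read 7.97 and 7.91 against 7.85 and 7.86 (−0.09 ± 0.12; adjusted p = 0.849). The target that fell was LAMB3, described with the basement membrane genes below.

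IL1R1, the signalling receptor for interleukin-1, went from 6.46 and 6.42 to 7.87 and 8.01 (1.5 ± 0.13; adjusted p = 1.57e-05). CFB, the protease of the alternative complement pathway, went from 7.25 and 7.25 to 8.79 and 8.66 (1.48 ± 0.16; adjusted p = 7.87e-05). A second probe set of each did not pass, at 0.07 for IL1R1 and −0.10 for CFB. SERPINA3 (α1-antichymotrypsin), an acute-phase protease inhibitor, went from 11.17 and 11.11 to 12.18 and 12.31 (1.10 ± 0.09; adjusted p = 7.06e-06). All 3 calls held without any of the 4 arrays. Of 22 complement and acute-phase genes 3 rose and 0 fell. The others were the classical pathway proteases C1S (0.63 ± 0.15; lost without vector replicate 2, at 0.302, shTA replicate 1, at 0.0754, and shTA replicate 2, at 0.331) and C1R (0.63 ± 0.11; lost without vector replicate 1, at 0.0734, vector replicate 2, at 0.0808, and shTA replicate 2, at 0.108). C3 read 11.07 and 11.11 against 11.58 and 11.50 (0.45 ± 0.19; adjusted p = 0.313).

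The chemokines did not move together. CXCL8 (interleukin-8) fell from 9.70 and 9.62 to 8.36 and 8.83 (−1.06 ± 0.22; adjusted p = 0.0186), and its second probe set fell by 1.0. That call was lost without vector replicate 1 (0.167), vector replicate 2 (0.113) or shTA replicate 1 (0.195), and the shTA arrays themselves lay 0.47 apart. CXCL2, a related neutrophil attractant, rose from 7.40 and 7.51 to 8.18 and 8.22 (0.74 ± 0.16; adjusted p = 0.0189; lost without any of the 4 arrays, up to 0.19). These were the 2 called of 14 chemokines. Among 22 genes of NF-kB feedback REL rose (0.52 ± 0.11) and the cytokine CSF3 fell (−0.64 ± 0.13); REL was lost without any of the 4 arrays (up to 0.171) and CSF3 in every refit but that without vector replicate 2 (up to 0.192). Of 43 interferon response genes GBP2 rose and IRF9 fell (4.65% called, against 2.29% of all genes), with a median of −0.01. GBP2 was lost without any of the 4 arrays (up to 0.306), as was IRF9 (up to 0.262). CXCR4, the receptor of the chemokine CXCL12, rose at all 3 of its probe sets, by 1.05, 1.01 and 1.89, from 6.98 and 6.84 to 8.08 and 7.84 at the one used (adjusted p = 1.49e-04).

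CYP1B1, a cytochrome P450 that oxidizes oestrogens and polycyclic hydrocarbons, went from 6.70 and 6.83 to 8.25 and 8.38 (1.55 ± 0.12; adjusted p = 4.48e-06). Of its other 3 probe sets 2 rose, by 1.06 and 1.5. It was the only one called of 12 genes of the aryl hydrocarbon receptor battery, of which NQO1 read 11.70 and 11.67 against 11.46 and 11.60 (−0.15 ± 0.10; adjusted p = 0.562). AKR1B10, an aldo-keto reductase that reduces retinal, went from 8.36 and 8.39 to 9.49 and 9.67 (1.21 ± 0.13; adjusted p = 1.14e-04). With AKR1C3, a steroid reductase, GCLC, which makes the precursor of glutathione, and the thioredoxin reductase TXNRD1 it gave 4 rises and 0 falls among 21 genes of the NRF2 antioxidant response, with a median of 0.05. AKR1C3 (0.61 ± 0.13) was lost without vector replicate 1 (0.16), vector replicate 2 (0.137) and shTA replicate 2 (0.299), GCLC (0.46 ± 0.10) without any of the 4 arrays (up to 0.222), and TXNRD1 (0.45 ± 0.08) in every refit but that without vector replicate 2 (up to 0.17). MAOA, the monoamine oxidase, went from 9.18 and 9.27 to 10.45 and 10.41 (1.20 ± 0.11; adjusted p = 1.70e-05), and BBOX1, the last enzyme of carnitine synthesis, from 7.49 and 7.53 to 8.88 and 9.13 (1.49 ± 0.15; adjusted p = 4.34e-05). HSD11B2, which inactivates cortisol, went from 6.21 and 5.92 to 7.07 and 7.0 (0.97 ± 0.12; adjusted p = 2.28e-04). MAOA and HSD11B2 were chosen after their values were seen. The groups lay apart in every one of these genes.

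Among regulators, ID2, an inhibitor of basic helix-loop-helix factors, rose from 6.57 and 6.81 to 7.91 and 8.09 (1.31 ± 0.12; adjusted p = 2.02e-05). A second, dimmer probe set of ID2 gave 0.49 ± 0.16, which did not pass. SGK1, a kinase induced by steroids and serum, rose from 9.67 and 9.67 to 10.69 and 10.72 (1.03 ± 0.12; adjusted p = 1.99e-04), while its shDBD arrays read 9.81 and 9.82. VAV3 rose from 7.86 and 8.08 to 8.95 and 9.11 (1.06 ± 0.15; adjusted p = 7.10e-04), with shDBD at 7.90 and 7.96. DICER1, the ribonuclease that cuts microRNA precursors, rose at the 3 brightest of its 6 probe sets, by 0.93, 1.14 and 1.11, and gave −0.12 to 0.16 at the 3 dimmer ones. At the probe set used the call of DICER1 was lost without vector replicate 1 (0.0569) or shTA replicate 2 (0.0625). SGK1, VAV3 and DICER1 were chosen after their values were seen. TMEM45A, a membrane protein of keratinizing epidermis, had the second largest rise, from 7.24 and 7.55 to 9.04 and 9.01 (1.63 ± 0.12; adjusted p = 3.74e-06). CTSZ, a lysosomal protease, rose by 1.39 ± 0.20 (adjusted p = 9.80e-04), but its shTA arrays read 9.23 and 10.05 and its other probe set gave 0.02. Histone genes, a list also chosen after values were seen, gave 7 rises and 0 falls among 44, with a median of 0.09. H2BC5 went from 9.30 and 9.18 to 9.93 and 10.04 (0.74 ± 0.09; adjusted p = 2.79e-04). Near-identical histone genes can share probes, and without either vector array or without shTA replicate 2 the list held 1 called gene.

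The falls included genes of the contractile actin cytoskeleton, many of which are targets of serum response factor (SRF). Of 33 measured genes 0 rose and 6 fell, with a median of −0.22 against −0.01 over all genes, and 5 of the 33 lay above 0. TAGLN (transgelin), an actin-bundling protein of smooth muscle and myoepithelium, read 10.64 and 10.63 in the vector arrays and 9.46 and 9.72 in the shTA arrays. MYL9, the regulatory myosin light chain, went from 9.25 and 9.30 to 8.38 and 8.39 (−0.89 ± 0.14; adjusted p = 0.00283). TGFB1I1 (Hic-5), a focal adhesion protein induced by transforming growth factor β, went from 9.20 and 9.34 to 8.30 and 8.26 (−0.99 ± 0.12; adjusted p = 2.53e-04). In each the groups lay apart and the call held without any array. THBS1 (−0.79 ± 0.16; up to 0.157) and PDLIM7 (−0.72 ± 0.14; up to 0.12) were lost without any of the 4 arrays, and AMOTL2 (−0.60 ± 0.11) without vector replicate 2 (0.11) or shTA replicate 2 (0.096). The list held 3 to 5 called genes when arrays were left out, and with the knockdown arrays alone 15 fell and 1 rose. ACTB, the cytoplasmic actin, read 14.46 and 14.51 against 14.45 and 14.38 (−0.07 ± 0.05; adjusted p = 0.611). The 3′ minus 5′ difference of the actin controls also moved with the group, at −0.0868 ± 0.00982 (SD, n = 2) in the vector arrays and 0.102 ± 0.14 in the shTA arrays, and its part in these falls was not tested.

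Basement membrane and adhesion genes gave 0 rises and 4 falls among 28, with a median of −0.11. COL4A1, a chain of the network collagen of basement membranes, fell from 8.07 and 8.09 to 7.24 and 7.38 (−0.77 ± 0.11; adjusted p = 6.84e-04). LAMB3, a chain of laminin-332, to which the hemidesmosomes of basal cells attach, fell from 11.69 and 11.75 to 11.03 and 10.90 (−0.76 ± 0.14; adjusted p = 0.00988), a call lost without vector replicate 1 (0.0768), vector replicate 2 (0.103) or shTA replicate 2 (0.134). The integrin chains ITGB5 (−0.51 ± 0.09) and ITGA2 (−0.34 ± 0.08) fell as well; ITGB5 was called only without shTA replicate 1 when arrays were left out (highest adjusted p = 0.0679), and ITGA2 in none of those refits (up to 0.393). ITGB4, the integrin chain of the hemidesmosome, read 11.58 and 11.62 against 11.61 and 11.55 (−0.02 ± 0.16; adjusted p = 0.981). The list held 1 called gene without either vector array or without shTA replicate 2. Among 33 genes of transforming growth factor β and bone morphogenetic protein signalling ID2 rose, and GDF15, the corepressor TGIF1 (−0.66 ± 0.13) and the activin antagonist FST (−0.62 ± 0.12) fell. TGIF1 was lost in every refit but that without vector replicate 1 (up to 0.134) and FST without any of the 4 arrays (up to 0.108). Of 26 mesenchymal and fibroblast markers 2 rose: the collagen crosslinking enzyme LOX (1.12 ± 0.20; lost without vector replicate 2, at 0.0812, shTA replicate 1, at 0.0557, or shTA replicate 2, at 0.0648) and the proteoglycan DCN (0.83 ± 0.13; lost without vector replicate 2, at 0.0621, or shTA replicate 2, at 0.0658). The summed level of that list was 14.05 and 14.10 in the vector arrays and 13.88 and 13.88 in the shTA arrays, and VIM read 13.59 and 13.65 against 13.34 and 13.30 (−0.30 ± 0.10; adjusted p = 0.166).

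The list of epidermal growth factor (EGF) receptors, their ligands and targets of the kinase ERK had the largest share of falls. Of its 26 measured genes 6 fell and 1, the receptor ERBB3, rose, with a median of −0.21. PHLDA1, an early response gene, read 9.99 and 10.11 in the vector arrays and 9.16 and 9.20 in the shTA arrays, and of its other 4 probe sets 2 fell, by 0.88 and 0.96. IER3, an immediate-early regulator of survival, fell from 10.76 and 10.76 to 10.19 and 10.26 (−0.54 ± 0.09; adjusted p = 0.00301). The ETS factors ETV5 (−0.68 ± 0.11) and ETV4 (−0.53 ± 0.12), the ephrin receptor EPHA2 (−0.59 ± 0.10) and the ERK inhibitor SPRY4 (−0.46 ± 0.11) fell too. ETV5 and EPHA2 were lost without vector replicate 2 (0.0712 and 0.0663) or shTA replicate 2 (both 0.0717), and ETV4 (up to 0.285) and SPRY4 (up to 0.354) without any of the 4 arrays, so that the list held 2 called genes without vector replicate 2 or shTA replicate 2 and 4 without either of the others. EGFR itself read 10.88 and 10.79 against 10.99 and 10.92 (0.12 ± 0.18; adjusted p = 0.868), and the phosphatase DUSP1 12.72 and 12.78 against 12.75 and 12.74. Of 21 immediate-early factors FOS alone was called, higher by 0.41 ± 0.09 (adjusted p = 0.0215; lost in every refit but that without shTA replicate 2, up to 0.199).

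**Figure D3:**
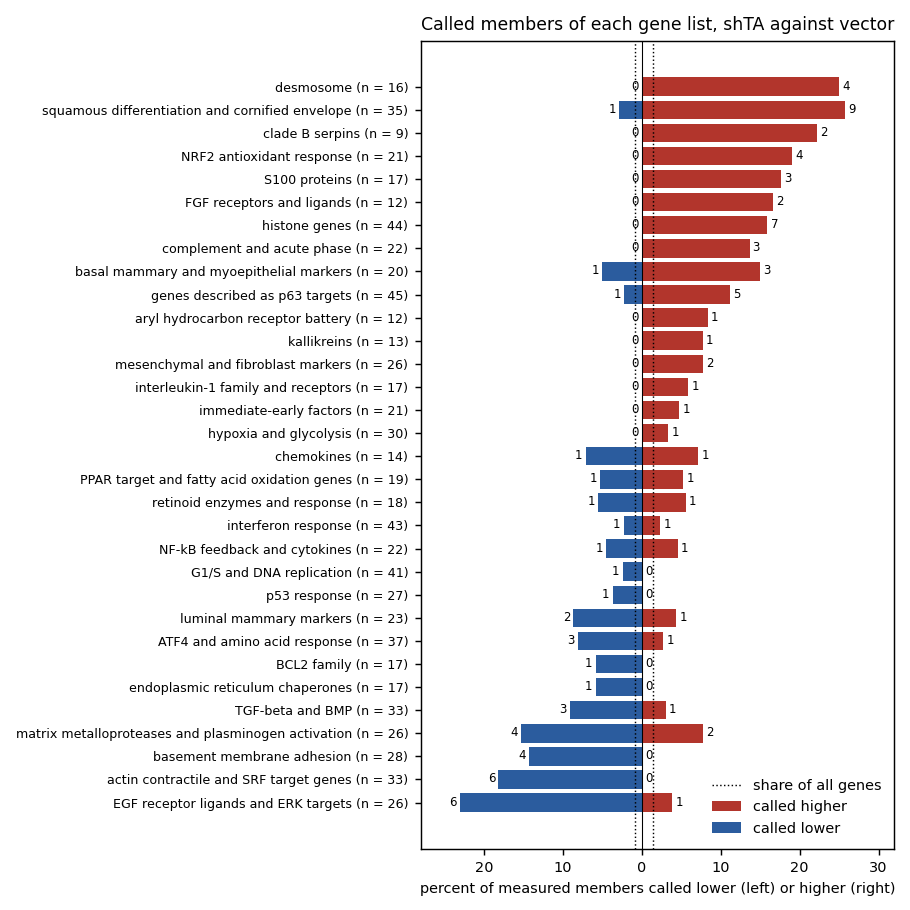
Bars give the percent of the measured members of each gene list that rose (red, right) or fell (blue, left) with shTA; the numbers at the bar ends are counts, n is the number measured, and dotted lines mark the shares over all genes, 1.44% and 0.853%. Only lists with a called member are drawn. Desmosome, squamous, serpin and NRF2 lists extend to the right, and EGF receptor, actin and basement membrane lists to the left.

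The deepest fall was that of GDF15, a secreted cytokine of the stress and p53 responses, from 10.05 and 10.09 to 8.89 and 8.86 (−1.19 ± 0.11; adjusted p = 2.02e-05); its shDBD arrays read 10.04 and 9.89. It was the only one called of 27 p53 response genes (3.7%, against 2.29% of all genes), and a dim second probe set gave −0.02. Among 37 genes of the ATF4 and amino acid response 3 fell and 1 rose, with a median of −0.11. CHAC1, which degrades glutathione, fell from 9.51 and 9.59 to 8.55 and 8.52 (−1.01 ± 0.13; adjusted p = 4.32e-04). TRIB3, a pseudokinase that restrains ATF4, fell from 12.20 and 12.24 to 11.52 and 11.55 (−0.68 ± 0.08; adjusted p = 2.53e-04), and STC2, a secreted glycoprotein of calcium and phosphate balance, from 8.77 and 8.70 to 8.07 and 7.98 (−0.71 ± 0.10; adjusted p = 8.51e-04). The 3 falls held without any array, and their shDBD arrays lay lower still. The rise was that of the glutamine transporter SLC38A1 (0.37 ± 0.08; adjusted p = 0.0178; lost without any of the 4 arrays, up to 0.161). BCL2L1, which encodes the survival protein BCL-XL, fell from 10.58 and 10.61 to 9.95 and 10.01 (−0.62 ± 0.09; adjusted p = 0.00159), alone among 17 genes of the BCL2 family, and XBP1, already named, alone among 17 chaperone and stress genes of the endoplasmic reticulum. The share of 2.29% called over all genes makes 1 call in lists of 27 or 17 genes unremarkable.

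The window before CHAC1 is shown because it was the largest fall of the ATF4 list. Capitals mark its match to TGATGNAA, the composite element of C/EBP and ATF factors, which lies on the opposite strand with its first base 209 bases before the start (chr15:40953221-40953470, plus strand, GRCh38.p14).
CHAC1: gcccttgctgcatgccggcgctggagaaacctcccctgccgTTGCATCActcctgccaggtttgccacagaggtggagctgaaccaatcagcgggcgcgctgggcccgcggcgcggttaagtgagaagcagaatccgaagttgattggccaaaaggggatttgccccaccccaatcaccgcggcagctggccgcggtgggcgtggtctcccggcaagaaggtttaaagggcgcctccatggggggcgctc
On either strand TGATGNAA was found in 3 of 81 genes that fell (3.7%: CHAC1, FUT1 and ITGB5), in 7 of 132 that rose (5.3%) and in 215 of 9562 (2.25%). The AP-1 motif TGANTCA, which shares its first letters with it, was found in 8 of 81 that fell (9.88%), among them CXCL8, F3, FST and IVL, in 8 of 132 that rose (6.06%) and in 519 of 9562 (5.43%). An exact spelling of a pair of core half-sites of the p53 family, searched on both strands, was found in 22 of 9562 windows (0.23%). Other spellings of the core were not searched. The spelling was found in 0 of the 132 and 0 of the 81, which says only that it is not in these windows. A share of 0.23% over all windows makes a count of 0 in sets of these sizes unremarkable. Whether the windows hold other sites of the p53 family was not tested. The CArG box, the motif bound by SRF, was found in 2 of 81 that fell (2.47%), AKAP12 and PDGFA, neither on the contractile list. It was found in 2 of 132 that rose (1.52%) and in 122 of 9562 (1.28%). TAGLN and MYL9 had no window to search.

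Proteases and coagulation factors at the cell surface gave 2 rises and 4 falls among 26. PLAU (urokinase), which activates plasminogen, fell from 9.96 and 10.07 to 9.52 and 9.48 (−0.52 ± 0.10; adjusted p = 0.0116), its inhibitor SERPINE2 by 0.53, tissue factor F3 by 0.54 and the metalloprotease inhibitor TIMP3 by 0.58. MMP7 (matrilysin), a metalloprotease, rose from 5.63 and 5.88 to 6.59 and 6.56 (0.82 ± 0.14; adjusted p = 0.00392), and the anticoagulant receptor THBD rose by 0.49. PLAU, TIMP3 and THBD lost their calls without any of the 4 arrays (up to 0.134, 0.245 and 0.3). F3 lost it without vector replicate 2 (0.169) or shTA replicate 2 (0.177), SERPINE2 without vector replicate 2 (0.0532) and MMP7 without vector replicate 1 (0.0859). The list held 1 to 3 called genes then. ANGPTL4, a secreted inhibitor of lipoprotein lipase, fell from 10.64 and 10.83 to 9.75 and 9.75, with a call that held without any array, and FABP5, the epidermal fatty acid binding protein, rose by 0.51 ± 0.09 (adjusted p = 0.00567; lost in every refit but that without vector replicate 2, up to 0.091). UPP1, which cleaves uridine, fell from 11.74 and 11.72 to 10.75 and 11.06 (−0.83 ± 0.12; adjusted p = 9.46e-04), and SH2D2A, an adaptor of signalling in T cells, from 8.44 and 8.54 to 7.60 and 7.74 (−0.82 ± 0.10; adjusted p = 2.02e-04). Both calls held without any array. AMIGO2, an adhesion protein, fell by 0.83 (lost without any of the 4 arrays, up to 0.113), and FBXL18, an F-box protein, by 0.87 (lost in every refit but that without shTA replicate 1, up to 0.247). The other 2 probe sets of FBXL18 gave 0.09 and 0.07, and with a gene's probe sets averaged its difference was −0.24 and not called.

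The cell cycle lists held almost no called gene. In the list of G2/M and mitosis 0 of 38 genes were called by limma (3 at an unadjusted p under 0.05, and 2 with the knockdown arrays alone), with differences from −0.35 to 0.42 and a median of 0.03. Of 41 genes of G1/S and replication the licensing factor CDC6 alone fell, from 8.48 and 8.68 to 8.17 and 7.45; the shTA arrays lay 0.71 apart, and the call (adjusted p = 0.0417) was lost in every refit but that without shTA replicate 1 (up to 0.498). The median of that list was −0.12, and PCNA read 11.28 and 11.47 against 11.35 and 11.45 (0.02 ± 0.14; adjusted p = 0.975). No gene was called by limma among 13 heat shock genes (2 at an unadjusted p under 0.05 and 2 with the knockdown arrays alone), 10 metallothioneins (2 and 0), 22 of sterol and fatty acid synthesis (6 and 5), 18 of Notch (1 and 0), 22 of Wnt (3 and 1), 15 of MHC class I presentation (1 and 0), 13 of prostaglandin metabolism (3 and 1) and 16 aminoacyl-tRNA synthetases (1 and 1). The same held for the markers of other cells, 21 immune (0 and 0) and 16 endothelial and adipocyte genes (1 and 0). A share of 2.29% called over all genes makes a count of 0 in lists of these sizes unremarkable. Of 30 genes of hypoxia and glycolysis the demethylase KDM3A alone rose (0.49 ± 0.12; lost without any of the 4 arrays, up to 0.387).

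The hairpin against all isoforms, shDBD, shares its vector arrays with shTA, so the hairpins were compared with each other directly. The direct comparison reuses the shTA arrays by which genes were called against the vector, so the 2 sets of calls are not independent. Of the 11963 genes, 9.23% were higher and 9.14% lower with shTA than with shDBD. Of the 172 genes that rose with shTA 59 were also higher than with shDBD, 36 were lower and 77 were not called. Of the 102 that fell, 28 were higher than with shDBD, 20 were lower and 54 were not called. All 38 of 38 G2/M genes (median 1.72) and 29 of 41 G1/S genes (median 0.72) were higher with shTA. So were 29 of 37 genes of the ATF4 response (median 0.92), including CHAC1 (0.61 ± 0.13) and TRIB3 (1.10 ± 0.08), 8 of 16 aminoacyl-tRNA synthetases and 6 of 10 metallothioneins, with 0 lower in each of these 5 lists. In contrast, 17 of 27 p53 response genes, 18 of 43 interferon genes and 8 of 15 MHC class I genes were lower with shTA.

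In 18 genes both hairpins were called against the vector, in opposite directions, and the direct difference was called too. For such genes the direct difference is the 2 changes added in size, so its call is not separate support. S100A7 and FBXL18 are not among them because shDBD against vector was not called (adjusted p = 0.437 and 0.0523). SRGN (serglycin), a proteoglycan of secretory granules, read 7.24 and 7.21 in the vector arrays, 6.20 and 6.33 with shTA and 10.40 and 10.55 with shDBD. At the probe set used FGFR3 read 7.37 and 7.31 with shDBD, below the 9.22 and 9.26 of the vector, where shTA lay above. Second, dimmer probe sets of SRGN, FGFR3 and GPRC5A gave −0.18, 0.43 and −0.49 for shTA minus vector, and none passed. FAT2, an atypical cadherin of squamous epithelium, read 8.31 and 8.47 with the vector, 8.88 and 8.79 with shTA and 6.77 and 6.56 with shDBD, and CRABP2 read 9.82 and 9.88 with shDBD. Groups did not overlap in any of these. GPRC5A, an orphan receptor induced by retinoic acid, and IRF9, a subunit of the interferon-activated complex ISGF3, had the reverse order, with shTA lowest and shDBD highest: 11.07 and 11.13, 10.42 and 10.48, and 11.85 and 12.09 for GPRC5A in the order vector, shTA, shDBD. The direct differences were −4.21 ± 0.19 for SRGN, 2.82 ± 0.11 for FGFR3 and 2.17 ± 0.11 for FAT2. They were 1.42 ± 0.11 for CRABP2, −1.51 ± 0.14 for GPRC5A and −1.37 ± 0.11 for IRF9. All 6 were called, which their selection required. Against the vector the calls of FGFR3 and CRABP2 held without any array; those of SRGN (up to 0.124), FAT2 (up to 0.382), GPRC5A (up to 0.182) and IRF9 (up to 0.262) were lost without any of the 4 arrays.

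**Figure D4:**
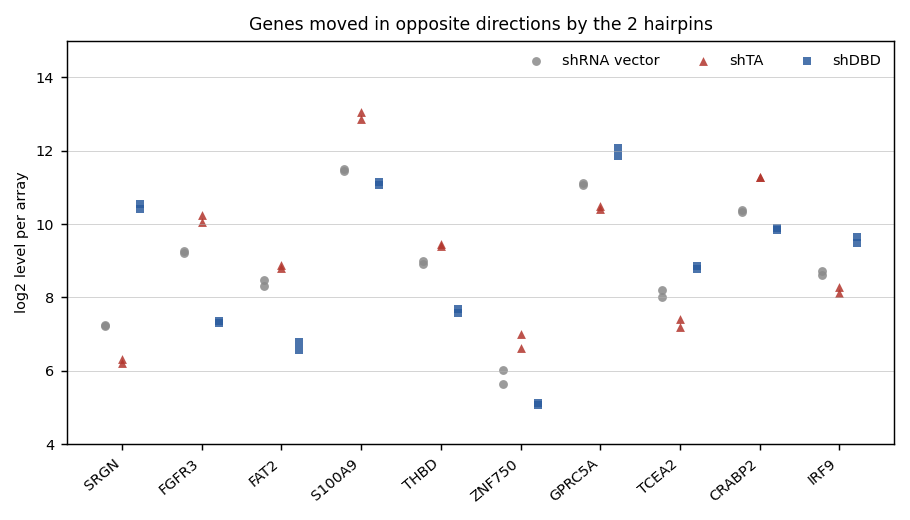
Log2 level of each array for the 10 genes with the largest direct difference among those called against the vector in opposite directions with the hairpins; grey circles are the vector, red triangles shTA and blue squares shDBD, 2 arrays each. SRGN spans from 6.20 with shTA to 10.55 with shDBD, and the vector arrays lie between the hairpins in all 10 genes.

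Overexpression of TAp63γ against its own vector shares no array with the knockdown and asks whether the genes move the other way when a TA isoform is added. TAp63γ raised 20.5% and lowered 22.8% of all genes. Of the 172 genes that rose with shTA, 77 (44.8%) also rose with TAp63γ and 53 (30.8%) fell; of the 102 that fell with shTA, 48 (47.1%) rose with TAp63γ and 29 (28.4%) fell. In all, 101 genes moved in opposite directions, 1.95% of the 5187 called with TAp63γ, and 106 in the same direction. The genes that moved oppositely included the contractile ones: TAGLN rose by 4.49 ± 0.10 with TAp63γ and MYL9 by 3.41 ± 0.12. CXCL8 rose by 4.17 ± 0.18, IVL by 2.97, ANGPTL4 by 2.26 ± 0.09 and TGFB1I1 by 0.87 ± 0.10. In the other direction CYP1B1 fell by 1.39, NEBL, an actin-binding nebulin relative, by 1.24 and SCNN1B, a subunit of the epithelial sodium channel, by 0.91, where shTA had raised them by 1.55, 1.08 and 0.91. The S100 genes went the same way in both: TAp63γ raised S100A7 by 6.85 ± 0.14, S100A8 by 3.05 ± 0.07 and S100A9 by 2.99 ± 0.09. SERPINB3 (3.78 ± 0.10), AQP3 (3.76 ± 0.09), ZNF750 (4.20 ± 0.14) and ID2 (2.72 ± 0.10) rose in both, and STC2 (−2.88 ± 0.08), TRIB3 (−1.92 ± 0.07) and CHAC1 (−1.52 ± 0.11) fell in both. GDF15 (−0.18 ± 0.09; adjusted p = 0.12) and IL1R1 (0.27 ± 0.11; adjusted p = 0.059) did not pass with TAp63γ. Both comparisons carry infected cells on either side, and the arms were treated as normalized separately, so differences and not levels are set side by side.

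**Figure D5:**
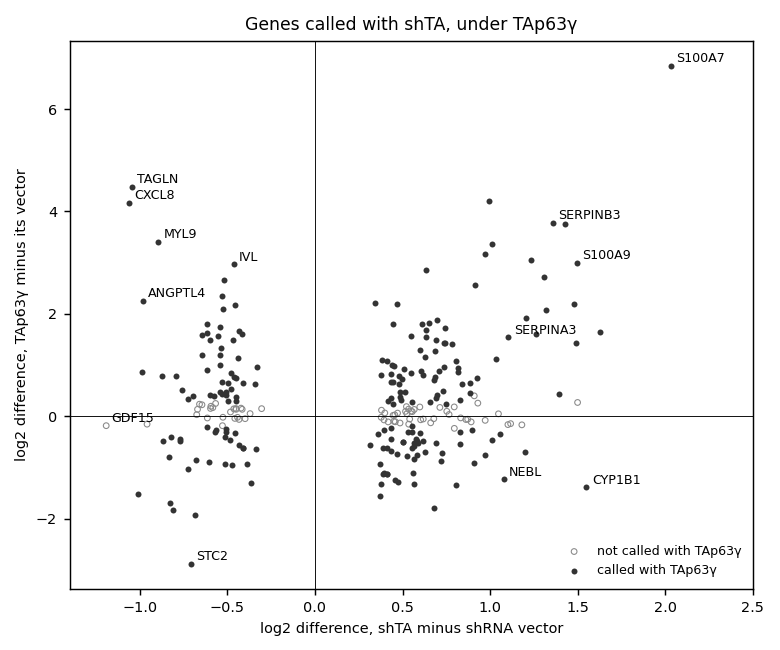
Each point is a gene called with shTA, 273 of the 274; the horizontal axis is its log2 difference with shTA and the vertical axis its log2 difference with TAp63γ, each against its own vector. Filled points were called with TAp63γ and open points were not; TAGLN, CXCL8 and MYL9 stand in the upper left and CYP1B1 and NEBL in the lower right, while S100A7 stands in the upper right and STC2 in the lower left.

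Genes with several probe sets gave a check within the arrays. Of the 274 called genes 105 had more than 1 probe set, with 188 probe sets beside those used. Of these 172 had the same sign, 61 were called in the same direction and 0 in the opposite one. At 7 of the 274 genes the vector level lay under the 20th percentile of the knockdown arrays, 5.40, and at 3 both levels did, so those differences start from levels not shown to be above background; SERPINB4, REL and LOX were among the 7.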

How the data were processed

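Total RNA of MCF-10A cells was measured on 15 Affymetrix arrays of 22277 probe sets. The deposited files hold a log2 level for each probe set, computed by the authors with the RMA method, per the submitters' processing notes. No version of RMA is given in the sources used here, nor whether both arms were normalized together. Medians of the arrays were 7.189 to 7.213 in the knockdown arm and 6.951 to 6.983 in the overexpression arm, so treatments were compared within an arm. RMA makes the arrays' distributions alike, which hides a shift of most transcripts, and compresses differences of dim probe sets. Arrays have no read depth, and with 2 or 3 a group their number limits how precise a value can be.

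The platform annotation named the probe sets: 19064 had 1 symbol, 1043 had several, 2108 were not listed and 62 were controls. Each gene took its single-symbol probe set with the highest mean over all arrays. Groups came from the labels. limma 3.58.1 in R 4.3.3 fitted group means to all 15 arrays (9 residual and 5.87 prior degrees of freedom, variance trend, two-sided tests, Benjamini-Hochberg adjustment within each comparison); the procedure was tested on simulated data. Detection calls were not used here, and a level under the 20th percentile counts as possibly background.

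The members, the gene lists and the rule for naming genes were chosen with earlier results of these data known. The rule took the 15 largest rises and the 15 largest falls among called genes with groups apart, from each list up to 5 called genes and 2 that were not called, the 10 genes moved most in opposite directions by shTA and TAp63γ, the 10 with the largest direct difference among those moved oppositely by the hairpins, and cell markers; other genes are said to have been chosen after their values were seen. Lists are described by counts and medians without a set test, and some genes stand in several lists. Promoter windows are from RefSeq (GRCh38.p14) and covered 9562 of the genes. Alternatives changed the arrays fitted, the variance model, the replicate block, the probe sets, the filter or floor on dim values, the normalization and the thresholds. 1 called gene is counted but not named or drawn.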

Additional observations from a re-analysis of the deposited data

Results flagged for a closer look

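In 18 genes both hairpins were called against the vector, in opposite directions. The direct limma comparison of shTA with shDBD was called too (adjusted over all genes). For these genes the direct difference is the 2 changes added in size, so its call is not separate support. The 10 with the largest direct difference are given here. The direct log2 difference, shTA minus shDBD with n = 2 per group, was −4.21 for SRGN, 2.82 for FGFR3, 2.17 for FAT2, 1.86 for S100A9 and 1.80 for THBD. It was 1.73 for ZNF750, −1.51 for GPRC5A, −1.51 for TCEA2, 1.42 for CRABP2 and −1.37 for IRF9. Of these, S100A9, FGFR3 and CRABP2 kept their call against the vector without any of the 4 arrays; the other 7 lost it without at least 2 of them. Both hairpins were compared with the same vector arrays, so an error in those arrays would enter both differences against the vector, though not the direct one.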

How the results depend on the processing

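For shTA against vector the count of 274 became 1064 with the 6 knockdown arrays alone, 1082 with the 4 shTA and vector arrays alone, 729 with array weights and 472 without ΔNp63α replicate 3. It was 108 at an adjusted p under 0.01, 134 with a fold of at least 1.5 added, and 87 to 131 without 1 of the 4 arrays. Except for the replicate block, other alternatives stayed within 1.5 times. Same-numbered arrays did not deviate together (correlation of deviations 0.00137 for shTA and vector), so the numbers were not taken as pairs; with the replicate number as a replicate block the count was 150. For shTA against shDBD the count of 2197 became 3359 with the knockdown arrays alone, 1348 to 1567 without 1 of the 4 arrays and 2588 without ΔNp63α replicate 3. For TAp63γ the count of 5187 genes was 4674 to 5086 without 1 array. Where all 19064 single-symbol probe sets were tested, 7859 probe sets were called, a count in another unit. The share that rose with shTA, 62.8%, was 57% with the 6 knockdown arrays alone and 57.1% with the 4 shTA and vector arrays alone. It was 57.8% with array weights and 57.3% with quantile normalization over the 15 arrays. That share was higher without any 1 of the 4 arrays, with the replicate block (68%) and at an adjusted p under 0.01 (71.3%). Under 18 settings 64 of the 274 genes kept their call in every one. Of 3257 pairs of a named gene and a setting 0 reversed a called direction, 205 lost a call and 44 gained one. Among all 274 called genes, named or not, 2 changed the sign of their difference in some setting. With 2 arrays per group, 140 of the 274 called differences were under 1.5-fold. The median residual SD was 0.0821 in the knockdown arrays and 0.113 in the overexpression arrays, which the main fit pooled. The median SE for shTA against vector was 0.109 in the main fit and 0.0891 with the knockdown arrays alone. The cause of the shifts in the counts was not tested.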

Other observations

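Genes of oxidative phosphorylation were not among the calls of limma: 0 of 27 passed (6 at an unadjusted p under 0.05, and 3 with the knockdown arrays alone). All 27 lay above 0, however, from 0.02 for NDUFV1, a subunit of complex I, to 0.54 for SDHD, a membrane anchor of complex II, with a median of 0.15 against −0.01 over all genes. The median was between 0.0663 and 0.192 under the alternatives, the lowest without shTA replicate 2 and the highest without shTA replicate 1, and 17 of the 27 had arrays that did not overlap, a state that 50.7% of all genes shared. COX6C, a subunit of complex IV, read 12.86 and 12.87 in the vector arrays and 13.07 and 13.02 in the shTA arrays, and ATP5PO, a stalk subunit of the ATP synthase, had a difference of 0.28 (adjusted p = 0.0593). These genes share the arrays and their normalization, so 27 positive values are not 27 separate observations.

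Some genes that rose with shTA are known from other secretory or transporting epithelia, and were chosen after their values were seen. AZGP1, a secreted glycoprotein of breast and prostate, read 8.33 and 8.45 with the vector, 9.40 and 9.59 with shTA and 10.18 and 10.40 with shDBD. CA2, a carbonic anhydrase, read 10.64 and 10.69, 11.27 and 11.36, and 11.03 and 10.82 in the same order, and CYP4B1, a cytochrome P450, 6.65 and 6.83, 7.72 and 7.78, and 9.97 and 10.50. In all 3 both hairpins lay above the vector.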
